A study of Mus musculus with 8 samples.

Results

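Tnf, Il1b, Il6, Tnfaip2, Tnfaip3, Nfkbia, Nfkbiz, Nfkb1, Nfkb2 and Relb are 10 mouse genes that encode cytokines, subunits and feedback proteins of the NF-kB pathway. They were chosen by gene symbol from the 37583 gene rows of each count file, with earlier results of these data known. Tnfaip2 was included with its opposite direction already known. All 10 had a row, and 8 of them were among the 15228 genes with enough reads to be tested. Tnf and Il6 fell under the filter on low counts.

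Whole kidneys of 8 mice were profiled by bulk RNA-seq. The 4 libraries labelled knockout came from b-actinCreERT2+TFAP2Bfl/fl mice, in which a Cre recombinase that acts on tamoxifen is driven by a promoter active in most cell types and both Tfap2b alleles are flanked by loxP sites. The 4 libraries labelled wildtype came from control littermates. The sources used here do not give age, sex or tamoxifen schedule, nor whether the controls carried Cre or floxed alleles or received tamoxifen, so an effect of Cre or of tamoxifen cannot be told apart from that of the Tfap2b genotype. Since bulk RNA was used, fewer cells of a type and less RNA per cell cannot be told apart for any gene below.

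Tfap2b, the targeted gene and a transcription factor of the AP-2 family, was counted at 238, 266, 237 and 240 in counts-per-million (CPM, scaled by the trimmed mean of M values) in knockout replicates 1 to 4. The libraries labelled wildtype held 94.2, 105, 110 and 103 CPM. Reads on the gene as a whole were therefore higher in every library labelled knockout, by 1.25 ± 0.074 (SE) on the log2 scale. A whole-gene count does not show whether the floxed part was deleted, so it neither checks nor supports the labels, and groups are named here by label.

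NF-kB proteins are dimeric transcription factors held in the cytoplasm by inhibitors of the IkB family until a receptor for a cytokine or a microbial product activates the IkB kinases. In the canonical branch the inhibitor encoded by Nfkbia is degraded and dimers such as those of Rela and Nfkb1 enter the nucleus. In the non-canonical branch the Nfkb2 precursor is processed and pairs with Relb. Nfkbia, Nfkb2, Relb and Tnfaip3 are themselves well-known targets of the pathway, which makes their transcripts a common readout of it, and injured kidney is a tissue in which the pathway is often studied.

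The DNA element that these dimers bind is the kappaB site, and matches to its consensus beside the members' start sites are shown as sequence matches only. The kappaB consensus, named without its letters because it holds ambiguous bases, was searched on both strands in RefSeq promoters of build GRCm38.p6, from 250 bases before to 50 after each start. The deposited counts were made on mm9, and no coordinate was converted. The promoter table held 7 of the 10 members and not Nfkbiz, Nfkb1 or Relb. In each 30-base window the match is in capitals, read 5′ to 3′ along the gene.
Il6, chr5:30013060-30013089, plus strand: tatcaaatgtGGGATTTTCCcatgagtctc
Tnfaip3, chr10:19015516-19015545, minus strand: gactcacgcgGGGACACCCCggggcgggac
Tnfaip3, chr10:19015403-19015432, minus strand: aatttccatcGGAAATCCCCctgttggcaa
Nfkbia, chr12:55492657-55492686, minus strand: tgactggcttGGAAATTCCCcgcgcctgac
Tnfaip2, chr12:111442627-111442656, plus strand: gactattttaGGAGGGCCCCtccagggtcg
Nfkb2, chr19:46304689-46304718, plus strand: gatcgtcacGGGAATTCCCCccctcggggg
Nfkb2, chr19:46304716-46304745, plus strand: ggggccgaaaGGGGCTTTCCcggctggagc
Nfkb2, chr19:46305449-46305478, plus strand: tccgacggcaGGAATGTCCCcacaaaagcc
Nfkb2, chr19:46305695-46305724, plus strand: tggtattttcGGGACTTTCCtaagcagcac

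The match of Il6 began 44 bases before its start, that of Nfkbia 29 bases before and that of Tnfaip2 24 bases before. The matches of Tnfaip3 began 125 and 12 bases before. Nfkb2 has 3 start sites in the table, and its 4 matches began 39, 11 and 236 bases before a start and at base 11 after one. The first window of Tnfaip3 and of Nfkb2 matched on both strands, with the matches overlapping. Thus 5 of 7 members had a match, against 2581 of 27025 genes with a promoter in the table (9.55%) and 8.46% of its 32851 promoters. The Tnf and Il1b windows held none of these letters, which says nothing of sites elsewhere. The core GCCNNNGGC, used by AP-2 factors and searched in the same windows on both strands, was found in 0 of 7 members and in 18.6% of genes (16.6% of promoters). The windows show that the gene whose counts were lower and genes whose counts were higher both carried a match, and a match is a description and not a bound site.

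The 3 cytokine genes were counted at low levels in both groups, and no difference was detectable at this depth. Il6, which encodes a secreted inducer of the acute-phase response, had 2 reads in knockout replicate 1 and 0 in each of the other 7 libraries. A total of 3 counts in the summed libraries would have been 0.0471 CPM in the group labelled knockout and 0.0476 CPM in the group labelled wildtype, so both groups lay under that limit and no fold is given. These limits and the intervals on counts below cover counting error only.

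Tnf, the founding ligand of its family and a classical activator of NF-kB, had 13, 6, 3 and 2 reads in knockout replicates 1 to 4 and 2, 8, 5 and 3 in wildtype replicates 1 to 4. Knockout replicate 1 held most of the reads of its group, and the groups overlapped. Summed, these were 24 reads against 18, a ratio of 1.32 relative to library totals, with a 95% exact counting interval of 0.686 to 2.58. An exact two-sided permutation test on the 8 CPM values gave p = 0.686.

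Il1b, which encodes a cytokine that needs cleavage before it signals, had enough reads to be tested. Its CPM was 1.58, 1.34, 1.84 and 2.38 in knockout replicates 1 to 4 and 1.35, 1.90, 2.09 and 0.788 in wildtype replicates 1 to 4. The groups overlapped, with the lowest value in the group labelled wildtype and the highest in the group labelled knockout. The log2 fold change (knockout over wildtype here and throughout) was 0.21 ± 0.32 (SE), with a 95% interval of -0.49 to 0.91 and an adjusted p of 0.715 by edgeR's quasi-likelihood test with Benjamini-Hochberg adjustment. Il1b rests on 116 and 93 reads in all, so the depth leaves a wide interval. Without wildtype replicate 4, its lowest library, the estimate was -0.013. Il1bos, a gene that overlaps Il1b, had 53 and 47 reads, and the counting did not use strand.

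Among the 8 members tested, 5 rose (Nfkb2, Relb, Nfkbia, Nfkbiz and Tnfaip3) and 1 fell (Tnfaip2) at an adjusted p of 0.05. Of all genes tested 11.9% passed, 6.23% rising and 5.70% falling. The same 5 members were higher, and Tnfaip2 lower, in every library labelled knockout than in any labelled wildtype. Over all genes tested, 9.38% were higher and 9.08% lower without overlap. The median log2 fold change of the 8 was 0.51, against 0.00 over all genes tested. Since the members were chosen with earlier results known, these counts and this median are a description and not independent evidence.

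**Figure D1:**
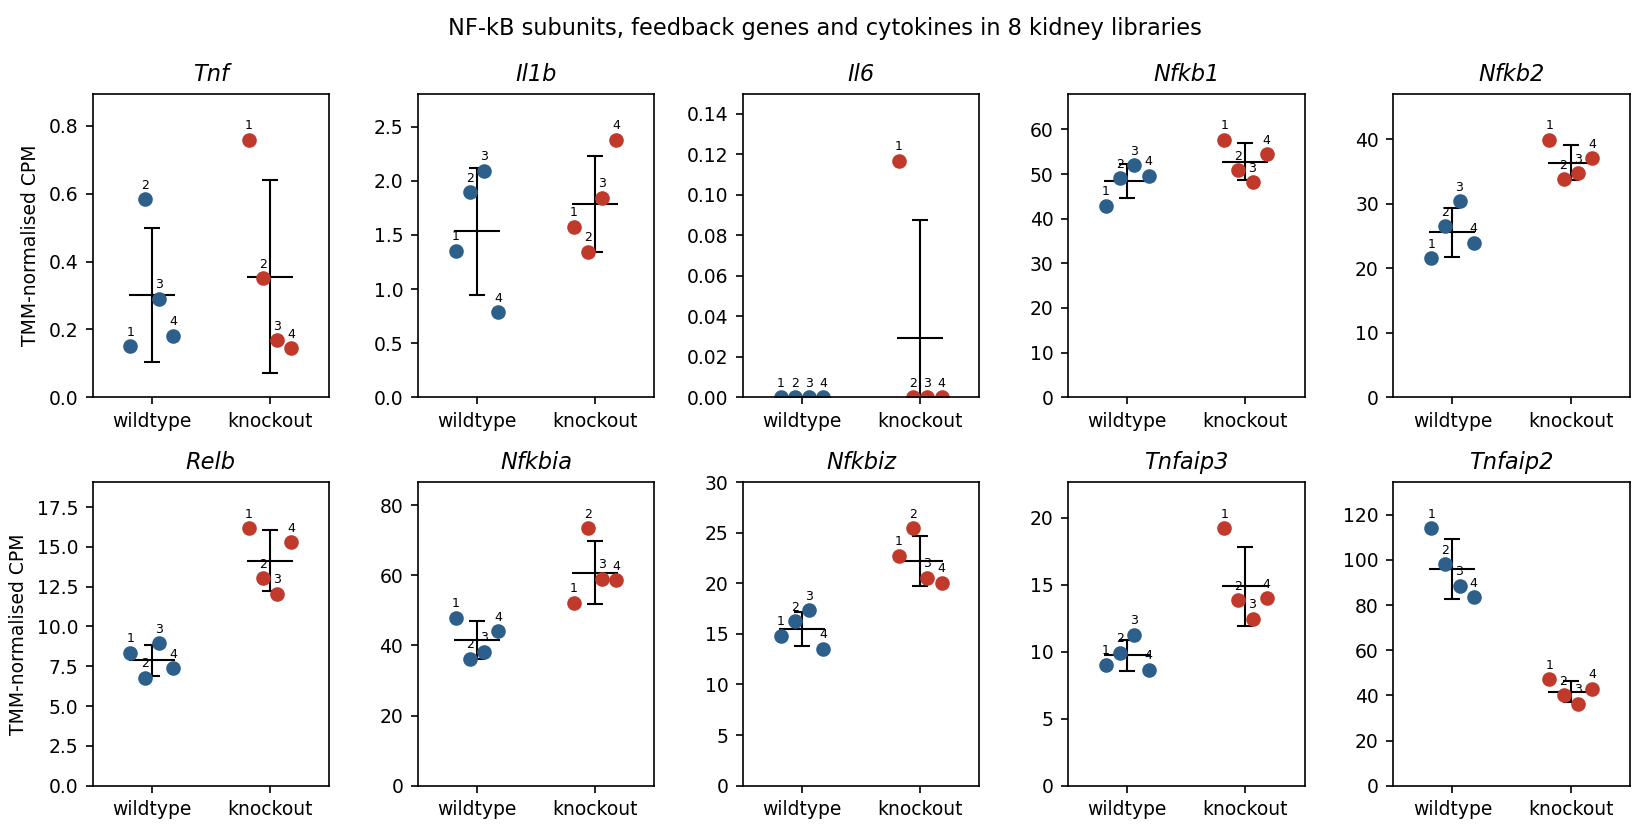
CPM of the 10 members in each of the 4 libraries labelled knockout and the 4 labelled wildtype, 1 panel a gene, with the mean and SD of each group and axes that start at 0. Nfkb2, Relb, Nfkbia, Nfkbiz and Tnfaip3 are higher and Tnfaip2 is lower in the libraries labelled knockout without overlap, while Tnf, Il1b, Il6 and Nfkb1 overlap.

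Of the 3 subunit genes Nfkb2 and Relb rose, and Nfkb1 did not pass the test. Nfkb1, the precursor gene of the canonical branch, stood at 57.7, 50.8, 48.2 and 54.4 CPM in knockout replicates 1 to 4 and at 42.9, 49.1, 51.9 and 49.6 CPM in wildtype replicates 1 to 4. The groups overlapped, and the log2 fold change of 0.12 ± 0.082 (SE) did not pass (adjusted p = 0.361 by edgeR, 95% interval -0.055 to 0.30).

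Nfkb2, the precursor gene of the non-canonical branch, was measured at 39.9, 33.8, 34.7 and 37.1 CPM in knockout replicates 1 to 4, against 21.5, 26.6, 30.4 and 23.9 CPM in wildtype replicates 1 to 4. Every library labelled knockout was above every one labelled wildtype, with the narrowest gap between knockout replicate 2 and wildtype replicate 3. Its mean was 36.4 ± 2.72 against 25.6 ± 3.81 CPM (SD, n = 4 each), a log2 fold change of 0.51 ± 0.11 (SE; adjusted p = 0.012, edgeR). Psd, a gene that overlaps the 3′ end of Nfkb2, also rose, by 0.43 (adjusted p = 0.045, edgeR), and its part in the Nfkb2 counts was not tested. Psd was chosen for this overlap after values were seen.

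Relb, the partner of processed Nfkb2, gave the highest fold among the 5 rising members. Its values were 16.2, 13.0, 12.1 and 15.3 CPM in knockout replicates 1 to 4 and 8.35, 6.79, 8.95 and 7.39 CPM in wildtype replicates 1 to 4. The groups were apart, and knockout replicates 1 and 4 were the highest. The means of 14.1 ± 1.91 and 7.87 ± 0.967 CPM (SD, n = 4 each) corresponded to a log2 fold change of 0.84 ± 0.13 (SE), or 1.79-fold (adjusted p = 0.00276, edgeR). Relb kept its call in all 17 alternative settings, with estimates of 0.67 to 1.06.

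The ratio of Nfkb2 to Nfkb1 counts was higher in the libraries labelled knockout. On the log2 scale of CPM with 0.5 added, it was -0.53 ± 0.047 against -0.91 ± 0.12 (SD, n = 4 each). This difference of 0.38 had p = 0.0286, the smallest an exact two-sided permutation test of 4 against 4 can give, and 0.0476 after adjustment over the 5 ratios tested. The ratio of Relb to Rela, the activating subunit of the canonical branch, was higher by 0.64 (-2.07 ± 0.24 against -2.71 ± 0.17, SD, n = 4 each) with the same exact permutation p-values. The adjusted p of both ratios passed only because the ratio of Il1rn to Il1b, given below, also had the smallest p. Nfkb2 and Relb were chosen with earlier results known. Both ratios use the same reads as their rises, so they are not separate evidence of those rises. Both differences show unequal change between paired genes, and not that Nfkb1 or Rela stayed the same. Without wildtype replicate 2 the differences were 0.40 and 0.56 and both calls were lost, with permutation p adjusted to 0.0714 and 0.0952 over the 5 ratios. For Nfkb2 to Nfkb1 the unadjusted p was then still the smallest possible.

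Nfkbia, the IkB-alpha gene that restores the cytoplasmic block after activation, had the highest level per length of exon among the members in both groups. Its CPM was 52.2, 73.4, 59.0 and 58.6 in knockout replicates 1 to 4, and 47.9, 36.2, 38.3 and 44.1 in wildtype replicates 1 to 4. Knockout replicate 2 was the highest, and knockout replicate 1 and wildtype replicate 1 were the closest pair across the groups. The log2 fold change was 0.55 ± 0.12 (SE), 1.46-fold, with an adjusted p of 0.0127 by edgeR. With a score of circadian clock genes as a term in the model, the estimate was 0.29 and the call was lost (adjusted p = 0.328, edgeR).

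Nfkbiz encodes an atypical nuclear IkB protein that helps transcription of a subset of targets, Il6 and Lcn2 among them. It was found at 22.7, 25.4, 20.6 and 20.04 CPM in knockout replicates 1 to 4 and at 14.8, 16.3, 17.3 and 13.5 CPM in wildtype replicates 1 to 4. The groups did not overlap, and knockout replicate 2 was again the highest. It rose by 0.52 ± 0.11 (SE) on the log2 scale (adjusted p = 0.012, edgeR), and the call was lost with the clock score as a term (0.61, adjusted p = 0.0692, edgeR). The ratio of Nfkbiz to Nfkbia overlapped between groups, with a difference of -0.035 and p = 0.943 by exact permutation.

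Tnfaip3 encodes an enzyme that edits ubiquitin chains on signalling proteins and so shuts down the IkB kinases. It had 19.2, 13.9, 12.5 and 14.0 CPM in knockout replicates 1 to 4, and 9.03, 9.93, 11.3 and 8.67 CPM in wildtype replicates 1 to 4. Knockout replicate 1 stood above the other libraries, and knockout replicate 3 and wildtype replicate 3 were close without overlap. The log2 fold change of 0.61 ± 0.15 (SE) passed with an adjusted p of 0.0231 (edgeR). Among the 5 rises it lost its call under the most alternatives. Without wildtype replicate 1 the adjusted p was 0.0583, and without wildtype replicate 4 it was 0.0628 (edgeR).

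Tnfaip2 is named for its induction by tumour necrosis factor and encodes a relative of an exocyst subunit, known for a role in membrane protrusions. Its 4 libraries labelled knockout held 47.2, 40.0, 36.3 and 43.0 CPM, in the order of replicates 1 to 4. The libraries labelled wildtype held 114, 98.2, 88.6 and 83.6 CPM. The lowest library labelled wildtype was well above the highest labelled knockout. The means were 41.6 ± 4.62 and 96.1 ± 13.4 CPM (SD, n = 4 each), a log2 fold change of -1.21 ± 0.11 (SE), or 2.31-fold lower (adjusted p = 8.53e-05, edgeR). It was called in all 17 alternatives, at -1.33 to -1.10. Since the gene was included with this direction known, its p is not independent evidence. As a description, the log2 ratio of Tnfaip2 to Tnfaip3 was 1.47 ± 0.13 in the group labelled knockout and 3.24 ± 0.27 in the group labelled wildtype (SD, n = 4 each).

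Per length of exon, for an approximate comparison between genes, Nfkbia led in the group labelled wildtype. Its mean was 25.9 CPM per kilobase of exon (RPKM), with Tnfaip2 next at 19.3. The ranges of these neighbours overlapped. Nfkb2 (5.59), Nfkb1 (4.01), Nfkbiz (3.09), Relb (2.03), Tnfaip3 (1.35), Il1b (0.804) and Tnf (0.184 RPKM) followed, each with a range apart from that of its neighbours. In the group labelled knockout the RPKM of Nfkbia was 37.8 and stood apart. Tnfaip2 at 8.35 RPKM overlapped Nfkb2 at 7.94 RPKM. Nfkbiz (4.42), Nfkb1 (4.38) and Relb (3.64 RPKM) overlapped each with the next, and Tnfaip3 followed at 2.06 RPKM. Tnfaip2 was second in both groups, and its range overlapped that of Nfkbia in the group labelled wildtype and that of Nfkb2 in the group labelled knockout. The order of means differed between groups only for Nfkbiz and Nfkb1, whose ranges overlapped in the group labelled knockout. These lengths join all annotated exons of a gene, whichever transcripts are expressed, so the order depends on them. Nfkb1 was divided by 12061 bases and Nfkb2 by 4584. In the group labelled wildtype Nfkb1 ranked lower although its mean was higher, at 48.4 against 25.6 CPM.

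**Figure D2:**
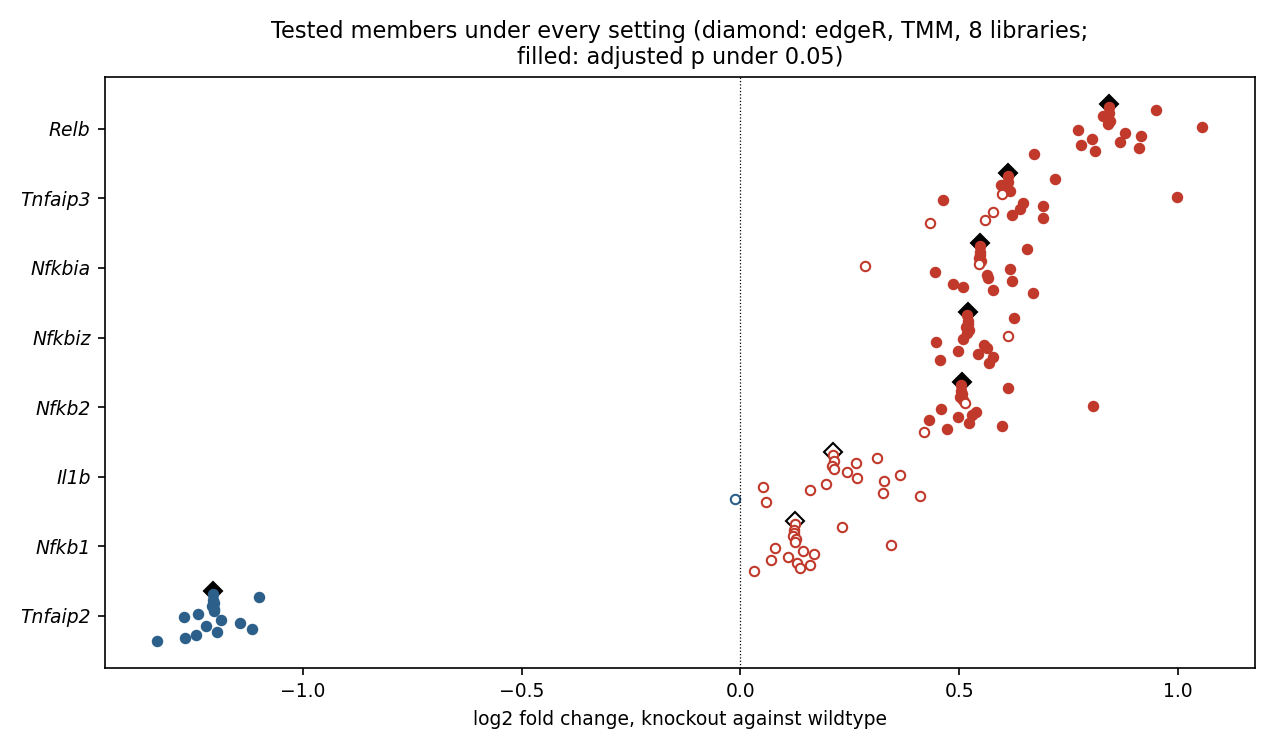
Log2 fold change (knockout over wildtype) of the 8 tested members in the main comparison and in each of 17 alternative settings, with calls at an adjusted p of 0.05 marked. Relb and Tnfaip2 are called in every setting shown, and Nfkb1 and Il1b in none.

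Knockout replicates 1 and 4 were each the highest on another measure. Knockout replicate 1 had the highest summed CPM of macrophage markers (654), a value not among those flagged below as far from their group. Knockout replicate 4 had 238 CPM of adrenal cortex markers, against 6.30 to 8.82 CPM in the other 7 libraries. Without both libraries, 3 of the 5 rises were still called (Nfkbia, Nfkbiz and Relb) and so was Tnfaip2. Nfkb2 was then at 0.42 (adjusted p = 0.0999) and Tnfaip3 at 0.43 (adjusted p = 0.131, edgeR). That comparison has 2 libraries against 4.

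Markers of macrophages, which express many NF-kB genes, were also higher in the group labelled knockout. Of 13 such markers tested, 11 rose (84.6%, against 6.23% of all genes tested). Mrc1, a mannose receptor of resident macrophages, was among them and rose by 1.51 ± 0.11 (SE; adjusted p = 1.48e-05, edgeR). None of the 13 markers was at 0 in all libraries. Summed, they came to 426 to 654 CPM in the group labelled knockout and to 264 to 333 CPM in the other group (p = 0.0286, exact permutation). Within the group labelled knockout, replicates 1, 4, 2 and 3 had this order, from high to low, in the macrophage sum, in Relb and in Tnfaip3. The same order held in Tnfaip2, whose group mean was lower, and in Nfkb1, which did not pass. The rising members Nfkb2, Nfkbia and Nfkbiz did not follow it. Nfkb2 ran in the order of knockout replicates 1, 4, 3 and 2, and Nfkbia was lowest in knockout replicate 1. Within the group labelled wildtype the sum and Nfkb2 both ran in the order of replicates 3, 2, 4 and 1. Relb, Tnfaip3, Tnfaip2, Nfkb1, Nfkbia and Nfkbiz did not follow that order. The part of macrophages in any member's counts was not tested.

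Immediate early genes, which respond within minutes to stress, growth factors and tissue handling, also moved. Of 10 tested 6 rose (60%, against 6.23% of all genes tested), Egr1 by 1.49 ± 0.18 (SE; adjusted p = 0.000603, edgeR). Their sum was 155 to 235 CPM against 109 to 135 CPM (p = 0.0286, exact permutation). Knockout replicates 2, 3, 4 and 1 had this order in the sum and in Nfkbia, which is itself rapidly induced. In the group labelled wildtype the sum ran in the order of replicates 4, 1, 3 and 2 and Nfkbia in that of 1, 4, 3 and 2. The part of this response in the members' counts was not tested.

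The score of circadian genes, in which the activators' mean log2 CPM is subtracted from that of the output genes, was -0.43 ± 1.11 against 1.87 ± 1.16 (SD, n = 4 each; p = 0.0571, exact permutation), a difference that did not pass the test. Of markers of other cells, Ly6g, which defines neutrophils, was at 0 in every library, and the neutrophil sum overlapped (1.70 to 5.62 against 2.67 to 3.43 CPM, with 0 of 2 tested genes called). The lymphocyte sum was 16.4 to 69.0 against 12.1 to 23.1 CPM, and 0 of 9 tested genes passed by edgeR, with 1 at an unadjusted p under 0.05. Of the 7 endothelial markers Ehd3, Flt1 and Kdr fell, 3 in all (42.9%, against 5.70% of all genes tested). The endothelial sum was 363 to 437 against 424 to 576 CPM. Without knockout replicate 2 Flt1 and Kdr were no longer called (adjusted p = 0.0707 and 0.128, edgeR), and both were also lost without any one of knockout replicate 4 and wildtype replicates 1, 2 and 4 (0.0562 to 0.114). Kdr was lost without knockout replicate 1 or 3 too (0.062 and 0.0778), while Ehd3 was called without any 1 library. All 6 kidney tubule and glomerulus markers were detected in each library. Of these 5 fell and 1 rose (83.3% and 16.7%, against 5.70% and 6.23% of all genes tested). Their sum was 8847 to 10064 against 14862 to 15717 CPM. Kidney markers fell beside Tnfaip2, and their part in its fall was not tested.

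**Figure D3:**
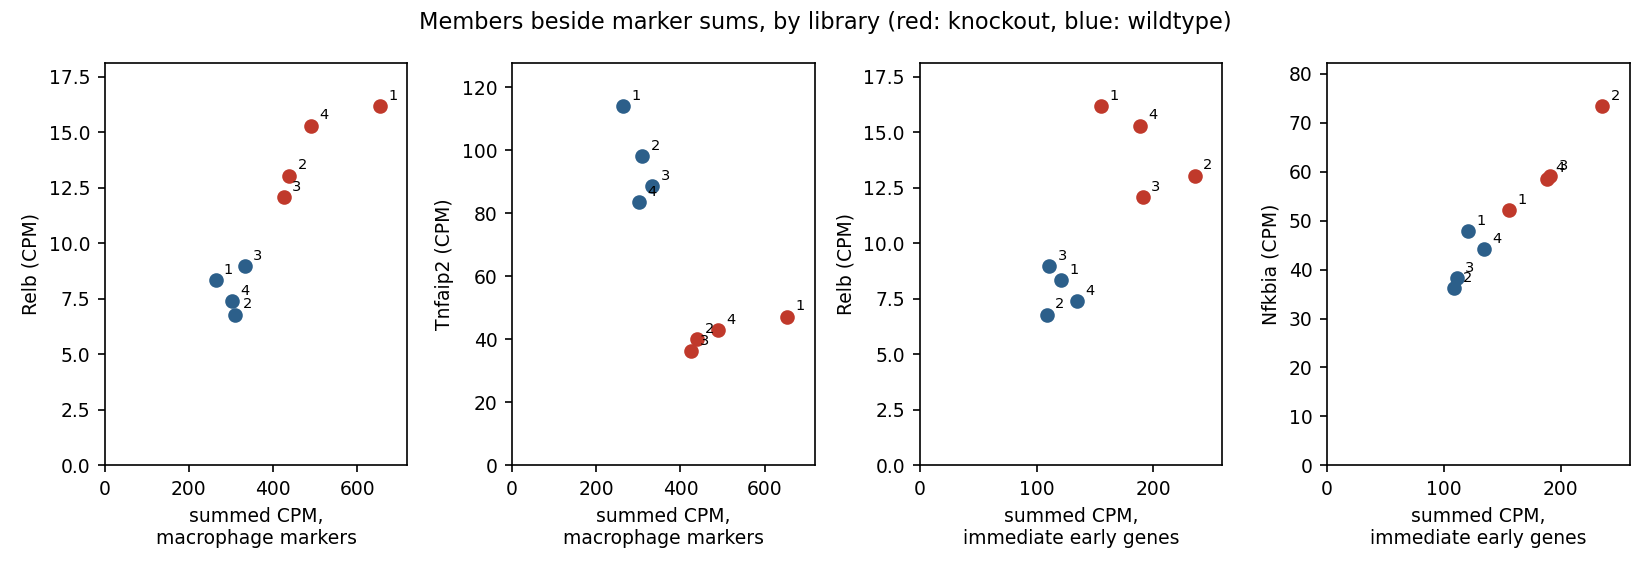
CPM of a member (vertical axis) against the summed CPM of a marker list (horizontal axis) in each library, with replicate numbers, red for knockout and blue for wildtype labels: Relb and Tnfaip2 against macrophage markers, Relb and Nfkbia against immediate early genes. Libraries labelled knockout lie to the right in each panel, and Relb is highest in knockout replicate 1 (16.2 CPM at a macrophage sum of 654 CPM) while Nfkbia is highest in knockout replicate 2 (73.4 CPM at an immediate early sum of 235 CPM).

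The other genes of the pathway were read from 9 lists by role, with 124 of 148 genes tested. In these lists together 28 rose (22.6%, against 6.23% of all genes tested), 5 fell (4.03%, against 5.70%) and 91 did not pass. The 23 genes under the filter are not part of these shares. The median log2 fold change was 0.20, against 0.00 over all genes tested. The lists were chosen with earlier results of these data known, so these shares and this median are a description. Among the rises are Il1rn and Lif, which passed the filter through the group labelled knockout. With a filter at 1 CPM in at least 4 libraries, which removed both, 26 rose. Leaving out 1 library gave 19 to 25 rises. Falls numbered 2 without any one of knockout replicates 2 and 4 and wildtype replicates 1, 3 and 4, and 3 without wildtype replicate 2. Without knockout replicates 1 and 4 there were 13 rises and 1 fall, and Nfkbie, Tnip2, Myd88, Traf2, Irak2, Tnfsf13b, Lif, Rhbdf2, Ier3, Exoc3l2, Il17ra and Sod2 of the genes named below were no longer called (adjusted p of 0.0558 to 0.243, edgeR). With the clock score as a term there were 22 rises and 1 fall, and the calls of Nfkbie, Tnip2, Myd88, Traf2, Irak2, Tnfrsf12a, Rhbdf2, Cebpb, Ier3, Exoc3l4, Il17ra and Sod2 were lost (0.0593 to 0.728).

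**Figure D4:**
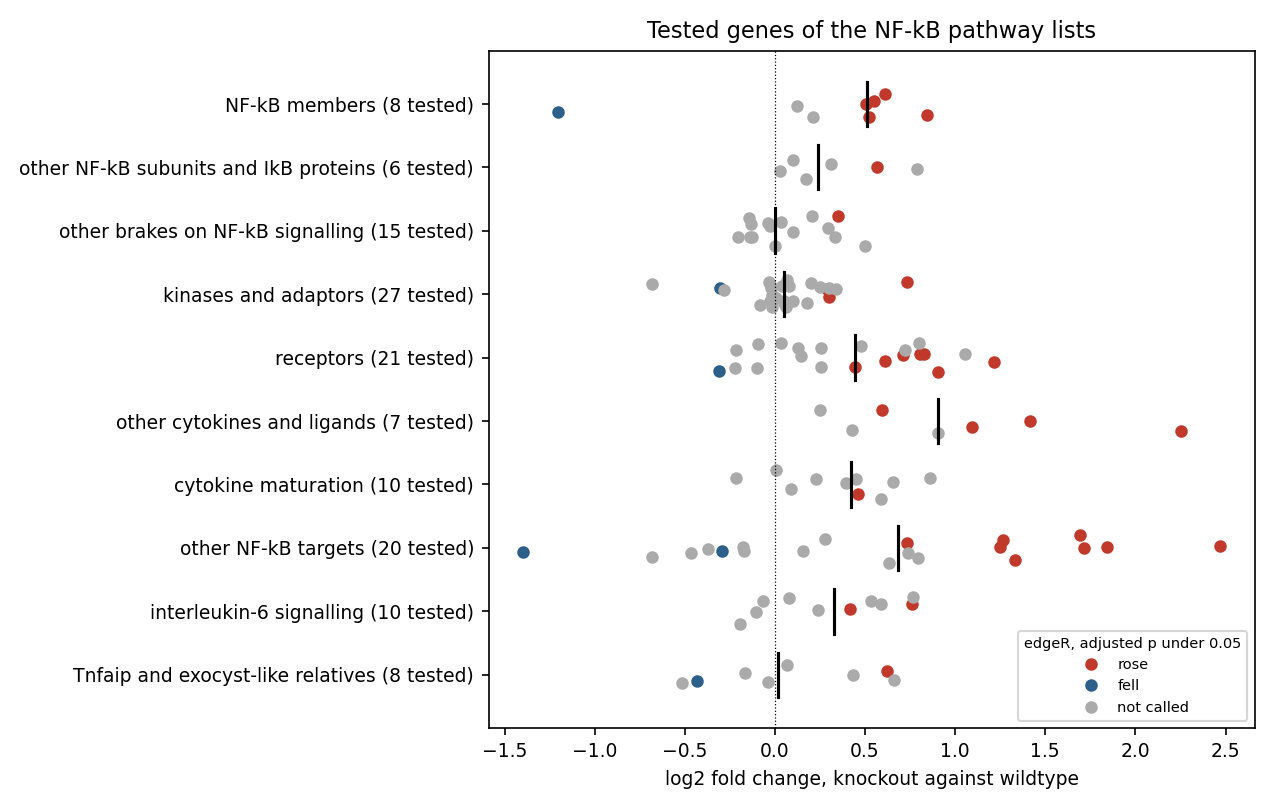
Log2 fold change (knockout over wildtype) of each tested gene in the members and the 9 pathway lists, with genes called at an adjusted p of 0.05 marked and the median of each list as a bar. The median of the 15 other brakes lies at 0.00 and that of the 21 receptors at 0.45.

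Of the 6 other subunits and IkB proteins 1 rose (16.7%, against 6.23% of all genes tested). This was Nfkbie, the IkB-epsilon gene, at 0.56 (adjusted p = 0.0427), a call lost on leaving out any one of knockout replicates 1, 3 and 4 and wildtype replicates 1, 3 and 4 (adjusted p of 0.0634 to 0.106, edgeR). Rela was at 0.17 (adjusted p = 0.149), Bcl3 at 0.31 (0.134) and Nfkbid at 0.79 (0.0924), by edgeR. These genes and Nfkbie, 4 of the 6, were higher in every library labelled knockout than in any labelled wildtype. Over all genes tested 9.38% were. Of 15 other brakes tested 1 rose. It was Tnip2, whose product works with that of Tnfaip3, at 0.35 (adjusted p = 0.0272), and its adjusted p was 0.0528 to 0.0692 without any one of knockout replicates 1, 2 and 4 and wildtype replicates 2, 3 and 4 (edgeR). The median of the 15 brakes was 0.00, and 14 of them did not pass. Their 1 rise is a share of 6.67%, near the 6.23% of all genes tested. Tnip3, named because it is the brake that fell under the filter, had 25 reads against 2. Each library labelled knockout was above each labelled wildtype for it. With no filter the list of brakes held 2 rises.

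Among 27 kinases and adaptors 3 rose and 1 fell, a share of 14.8% called that is near the 11.9% of all genes tested. Birc3, a ubiquitin ligase at the tumour necrosis factor receptor and a known NF-kB target, rose by 0.73 ± 0.15 (SE; adjusted p = 0.0103, edgeR). Myd88, the adaptor of Toll-like and interleukin-1 receptors, rose by 0.30, Traf2, an adaptor of tumour necrosis factor receptors, by 0.29, and Irak2, a kinase downstream of Myd88, fell by 0.31. Those 3 calls had adjusted p-values of 0.0218, 0.0395 and 0.0325 (edgeR), and all 3 were lost without any one of knockout replicates 2 and 4 and wildtype replicates 2, 3 and 4, those of Traf2 and Irak2 also without wildtype replicate 1 (0.0513 to 0.113). Scaled by library totals alone, Irak2 was at -0.20 (adjusted p = 0.101, edgeR).

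Of 21 receptors tested 7 rose (33.3%, against 6.23% of all genes tested) and 1 fell (4.76%, against 5.70%), and the median was 0.45. Il1r1, the signalling receptor of interleukin-1, was at 29.3 ± 2.54 against 16.5 ± 1.77 CPM (SD, n = 4 each), a log2 fold change of 0.83 (adjusted p = 0.000596, edgeR). Il18r1, the receptor chain of interleukin-18, rose by 1.22, Tnfrsf12a, the receptor of the ligand TWEAK and a non-canonical activator, by 0.91, and Cd14, a co-receptor for lipopolysaccharide that is also among the macrophage markers, by 0.80 (adjusted p of 0.00125, 0.00912 and 0.0018, edgeR). Without wildtype replicate 4, 4 receptors rose. Il17ra, named because it was the 1 that fell, was at -0.31 (adjusted p = 0.0476) and lost its call without any one of 7 libraries, all but knockout replicate 3 (0.0566 to 0.136, edgeR).

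Of 21 other cytokines and ligands with a row, 14 fell under the filter on low counts. Of the 7 tested, 4 rose: Csf1, a growth factor of macrophages, Il1rn, the antagonist of the interleukin-1 receptor, Tnfsf13b, the B cell factor BAFF and a non-canonical activator, and Lif, a cytokine of the interleukin-6 family. Csf1 was at 24.3 ± 1.93 against 16.0 ± 1.11 CPM (SD, n = 4 each), 0.60 on the log2 scale (adjusted p = 0.00231, edgeR). The others rest on few reads. Il1rn had 64 reads against 12 and rose by 2.25 (adjusted p = 0.00466), Tnfsf13b had 151 against 65 and rose by 1.09 (0.0208), and Lif had 76 against 26 and rose by 1.41 (0.0257, edgeR). Tnfsf13b lost its call without any one of knockout replicate 2 and wildtype replicates 1 and 3 (0.0554 to 0.0621), and Lif without any one of knockout replicates 1 and 2 and wildtype replicates 1, 2 and 4 (0.0523 to 0.0681). Il1rn (0.061 to 0.292 CPM in the group labelled wildtype, 0.877 to 1.05 in the group labelled knockout) and Lif (0.219 to 0.581 against 0.793 to 1.58 CPM) had their reads mostly in the group labelled knockout, and so passed the filter through it. A filter at 1 CPM in 4 libraries removed both and left 2 rises, while with no filter all 4 were called. The count of 4 of 7 is therefore not read against that of all genes.

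The antagonist Il1rn thus rose while the rise of the agonist Il1b did not pass. The log2 ratio of Il1rn to Il1b was -0.62 ± 0.25 in the group labelled knockout and -1.51 ± 0.22 in the group labelled wildtype (SD, n = 4 each). This difference of 0.89 had p = 0.0286 by exact permutation, and 0.0476 adjusted over the 5 ratios. The ratio uses the same Il1rn reads as the rise above, so it is not separate evidence of that rise. Il1rn in the group labelled wildtype lay under the 0.5 CPM added, and the size depends on that value: the difference was 1.67 with 0.1 CPM added and 0.33 with 2 CPM added, where the call was lost (adjusted p = 0.0952, exact permutation). Without wildtype replicate 2 the difference was 0.86, with a permutation p adjusted to 0.0714. The ratio of Tnf to Il1b differed by -0.13 and overlapped (p = 0.714, exact permutation).

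Other NF-kB targets held 8 rises (40%) and 2 falls (10%) among 20 tested, against 6.23% and 5.70% of all genes tested. Another 5 were under the filter. Without knockout replicates 1 and 4 this list held 3 rises and 0 falls. Ccl2, a chemokine for monocytes, had 258 reads against 42 and rose by 2.47 ± 0.30 (SE; adjusted p = 0.000621, edgeR). Vcam1, an adhesion molecule for leukocytes, was at 51.5 ± 13.9 against 14.4 ± 2.09 CPM (SD, n = 4 each), 1.84 on the log2 scale (adjusted p = 0.000303, edgeR). Lcn2, a marker of tubular injury that depends on Nfkbiz in other cells, rose by 1.27 (adjusted p = 0.000976, edgeR). Ier3, an early-response gene that limits cell death, fell like Tnfaip2, by 1.40 (adjusted p = 0.00376, edgeR). Sod2, the mitochondrial superoxide dismutase, was the other that fell, at -0.29 (adjusted p = 0.0337), and was named for that. Its call was lost without any one of 7 libraries, all but knockout replicate 3 (0.0578 to 0.0857, edgeR).

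Genes that act before and after these cytokines were read from 2 lists. Of 10 cytokine maturation genes 1 rose (10%, against 6.23% of all genes tested). This was Rhbdf2, which carries the enzyme that sheds tumour necrosis factor to the cell surface, at 0.46 (adjusted p = 0.0142, edgeR). Of 10 genes of interleukin-6 signalling 2 rose (20%, against 6.23% of all genes tested) while Il6 itself was at the limit of counting. Stat3, the transcription factor of that pathway, was at 135 ± 8.25 against 101 ± 6.27 CPM (SD, n = 4 each), a rise of 0.42 (adjusted p = 0.00401, edgeR). Cebpb, a transcription factor of the acute-phase response, rose by 0.76 (adjusted p = 0.0378), with overlapping groups, and its call was lost without any 1 library except knockout replicate 1 (0.0612 to 0.101). Socs3, the feedback inhibitor of Stat3, was at 0.77 (adjusted p = 0.0636, edgeR).

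The relatives of Tnfaip2, by name or by exocyst domain, were read as a list. Of 8 tested, 1 rose and 1 fell (12.5% each, against 6.23% and 5.70% of all genes tested), and the median was 0.015. Exoc3l4 rose by 0.62 (adjusted p = 0.00955) and Exoc3l2 fell by 0.43 (adjusted p = 0.0145, edgeR). Their functions in kidney are less well known.

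Among the 12454 genes (12455 for Il1b) with a mean log2 CPM of at least 1, those whose log2 CPM was most like that of a member over the 8 libraries were found by Pearson's r, given as a description because all points share the 2 groups. For Nfkbia they were Gata2 (0.993), Atp6v1c2 (0.989) and Tle1 (0.989). For Tnfaip2 they were Fgf9 (0.988), Cacnb4 (0.984) and Id1 (0.984). For Il1b they were Eid2 (0.971), Raver1 (0.956) and Faf2 (0.942).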

How the data were processed

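Per the labels' protocols, RNA was taken from kidneys with Trizol, and libraries were made with a strand-marking kit from 200 ng of RNA and 15 cycles of PCR. The authors deposited whole-number counts of reads per gene, 1 file a library, with no normalization. The submitters' processing notes name STAR, HTSeq, edgeR and mm9. Versions and annotation were not given in the sources used here, and the counting is named as not stranded, so overlapping genes on opposite strands cannot be told apart.

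Gene counts came to 13435113 to 17930347 per library, 63.8% to 69.1% of the records of each. The other records, in the counter's summary rows, stayed out of library sizes and tests. Symbols were matched to 32860 of 37583 identifiers. Genes kept by filterByExpr (15228) were scaled by TMM and compared with edgeR's quasi-likelihood test (edgeR 4.0.16, R 4.3.3, two-sided, robust, no covariate). Adjusted p-values are Benjamini-Hochberg values over all of these genes, with a threshold of 0.05. Single values and ratios (pseudocount 0.5 CPM) were compared by exact permutation over 70 assignments. RPKM used exon lengths of GENCODE M21 (GRCm38). The script was tested on simulated data. Alternatives were other scalings, DESeq2 (1.42.0), limma voom (3.58.1), other filters, a replicate block, a clock score term (mean log2 CPM of clock output genes minus that of clock activators), other pseudocounts, leaving out each library, and leaving out knockout replicates 1 and 4.

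The members and gene lists were chosen with earlier results of these data known. Named were all members, up to 4 genes with the smallest adjusted p in each pathway list and up to 3 in each marker list, the 3 genes most like Il1b, Nfkbia and Tnfaip2, and genes said to be named for another reason. No label ties replicates to litters or days, and p-values measure the spread between these 8 libraries. Libraries of 1 group differed by 9.72 to 24.8 times the counting variance (chi-square per degree of freedom), so none was a copy of another.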

Additional observations from a re-analysis of the deposited data

Results flagged for a closer look

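In 50 groups of 4 values (members, marker sums and ratios), 4 had a library far from the other 3, where chance gives about 1 in 20. The measure is the gap to the nearest library as a share of the group's range, against Dixon's 95% critical value for 4 samples. Il6 in knockout replicate 1 gave 1, since its 2 reads were the only ones. The adrenal cortex sum of knockout replicate 4 gave 0.9951, at 238 CPM, where replicates 1 to 3 had 7.70 to 8.82 CPM. The log2 ratio of Nfkbiz to Nfkbia in knockout replicate 1 gave 0.9264, as the highest of its group. The endothelial sum of wildtype replicate 3 gave 0.8754, at 424 CPM, where replicates 1, 2 and 4 had 557 to 576 CPM.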

How the results depend on the processing

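Members' fold changes kept their direction and call in 126 of 136 refits. On leaving out 1 library Il1b ran from -0.013 (without wildtype replicate 4) to 0.41. With a replicate block, the rises of Nfkbia, Nfkb2 and Tnfaip3 were lost (adjusted p = 0.0592, 0.0505 and 0.0746, edgeR). Members rising numbered 2 with the block, 3 with the clock score, 3 without knockout replicates 1 and 4, and 4 to 5 on leaving out 1 library, and 1 fell throughout. Among all genes 949 rose and 868 fell, against 577 and 517 with the block, 513 and 245 with the clock score, 502 and 410 without knockout replicates 1 and 4, and 588 to 977 and 488 to 963 on leaving out 1 library. Scaling by library totals alone moved the median of all genes to 0.11 and gave 1658 and 508, so the share of rising calls went from 52.2% to 76.5%, and the clock score gave 67.7%. Rises in the pathway lists went from 28 to 17 with the block, to 13 without knockout replicates 1 and 4 and to 19 to 25 without 1 library. Falls went from 5 to 2 with library totals, 2 with the block, 1 with the clock score, 1 without knockout replicates 1 and 4, and 2 to 7 without 1 library. The cause was not tested, beside the fewer samples of the smaller fits. Replicate numbers did not pair the libraries: same-numbered deviations correlated at -0.22, -0.21, -0.053 and 0.16, and 1 of 4 numbers correlated best with its own.

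With 2 CPM added, the ratios of Nfkb2 to Nfkb1 (0.36), Relb to Rela (0.55) and Il1rn to Il1b (0.33) lost their calls by exact permutation, adjusted p = 0.0714, 0.0714 and 0.0952. Without knockout replicates 1 and 4 (0.39, 0.44 and 0.95) no test could pass (0.111 each, permutation). On leaving out 1 library they were 0.34 to 0.43, 0.56 to 0.73 and 0.82 to 0.99. Nfkbiz to Nfkbia ran from -0.13 to 0.057, above 0 without wildtype replicate 2 (0.054) or 3, and Tnf to Il1b from -0.37 to 0.11, above 0 without knockout replicate 4 (0.11) or wildtype replicate 4 (0.0043). Of 1066 refits of other named genes 890 were the same, 146 lost and 25 gained a call, and 5 turned: Csf3r without knockout replicate 1 (-0.25, against 0.42 without replicate 4) and without both (-0.18), and Npas2 (-0.13), Nfil3 (-0.12) and Arntl (-0.24) with the clock score, none of them called.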
